A study of Mus musculus with 96 samples.

Results

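The 5 genes of lipoprotein and cholesterol uptake described here were followed in mouse hepatocytes and liver macrophages: Lrp1, Lrpap1, Scarb1, Stard4 and Npc1l1. They were chosen by name, with earlier results of these data known. They are 5 of the 25095 gene symbols in each of the 4 deposited tables. Each was read from the transcript with the highest mean in its table. The mice were adult males of the C57BL/6J strain on a 4-week high fat and sucrose diet. In the Control, RevDKO and RevScapTKO groups the mice carried floxed alleles and received an adeno-associated virus with the hepatocyte promoter TBG, encoding GFP in Control and Cre recombinase in the other groups. RevDKO names deletion of the genes for the clock repressors REV-ERB-alpha and REV-ERB-beta, Nr1d1 and Nr1d2, and RevScapTKO names deletion of Scap in addition. ScapKO names deletion of Scap alone. The promoter of the virus aimed deletion at hepatocytes, so the liver macrophages were neighbours of targeted cells and not targets themselves. Each genotype and cell type had 3 libraries at each of ZT4, ZT10, ZT16 and ZT22 (zeitgeber time, counted in hours from lights on, the dark phase starting at ZT12), which gave 12 libraries per genotype and cell type and 96 in all.

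Cells take up cholesterol by several routes. LRP1 is a large endocytic receptor of the LDL receptor family that clears remnant lipoproteins and many other ligands, and the product of Lrpap1, known as RAP, is a chaperone that keeps such receptors from binding ligands too early in the secretory pathway. SR-BI, encoded by Scarb1, takes up cholesteryl esters from high density lipoproteins at the hepatocyte surface. NPC1L1 takes up free sterol, chiefly in the intestine, and STARD4 carries cholesterol between membranes inside the cell. SCAP escorts the SREBP transcription factors from the endoplasmic reticulum to the Golgi, where they are activated when sterol is low, and Stard4 is a known target of SREBP-2.

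Values are in RPKTM, reads per kilobase of transcript at a fixed library total, scaled by the authors so that all libraries of a table share 1 distribution. Each table was scaled separately, so genotypes were tested within the hepatocyte table and within the macrophage table of Control, RevDKO and RevScapTKO, and ScapKO values are given as description. The summed level of 10 macrophage markers in hepatocyte libraries ran from 244 to 3094 in Control, from 413 to 2398 in RevDKO and from 956 to 6206 in RevScapTKO, with no marker at 0 in any library. Endothelial and stellate markers followed the same order. In hepatocytes, the means of Nr1d1 and Nr1d2 were 138 and 312 RPKTM in the libraries labelled RevDKO, and 90.7 and 228 in Control. Whether the deleted exons were among the bases counted was not tested. Arntl, a clock gene known to be repressed by the REV-ERBs, ranged from 117 to 155 RPKTM in RevDKO and from 96.7 to 141 in RevScapTKO, with means of 139 and 119, and from 4.21 to 119 in Control, with a mean of 60.8. RevDKO and RevScapTKO mean the libraries labelled so. Scap followed its label in hepatocytes, where Control had 495 ± 73.1 RPKTM, RevDKO had 536 ± 109 and RevScapTKO had 209 ± 63.5 (SD, 12 libraries per genotype).

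The members spanned the range of transcript levels, with Lrp1 at the top and Npc1l1 near 0. In hepatocytes of the 3 genotypes the mean was 9695 RPKTM for Lrp1 (lowest library 4059, highest 24858), 500 for Scarb1 (332 to 785), 269 for Stard4 (30.3 to 547), 118 for Lrpap1 (31.6 to 165) and 0.210 for Npc1l1 (0 to 1.27). RPKTM is per length, so these levels can be compared between genes. The order was that of Control and RevDKO, and in RevScapTKO hepatocytes Stard4 (53.0) stood below Lrpap1 (115). In the macrophage table Lrp1 was again first (3997), followed by Scarb1 (178), Lrpap1 (64.3) and Stard4 (47.5), and the ranges of the last pair overlapped over most of their extent. A set of 4 members exceeded 5 RPKTM in at least 3 libraries of every table and entered the tests. Npc1l1 did not pass this filter in any table. Exons of the members overlapped no other annotated gene.

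Stard4 was the member that differed most between genotypes. Its transcript (NM_133774, mm9, chromosome 18, 33358792 to 33373516, minus strand) averaged 372 ± 107 RPKTM in hepatocytes of Control, 383 ± 86.1 in those of RevDKO and 53.0 ± 13.8 in those of RevScapTKO (SD, 12 libraries per genotype). Control libraries ranged from 227 to 547 with a median of 376, RevDKO libraries from 246 to 522 with a median of 397, and RevScapTKO libraries from 30.3 to 77.3 with a median of 53.9. All 12 RevScapTKO libraries lay below all 24 others, a separation shown by 0.758% of genes against RevDKO and 0.991% against Control. The mean level fell by 2.84 on the log2 scale between RevScapTKO and RevDKO (SE 0.13, limma adjusted p 2.93e-17) and fell by 2.78 between RevScapTKO and Control (SE 0.13, limma adjusted p 4.43e-17). These are differences of log2(RPKTM + 1), and they correspond to 0.14 times the RevDKO level and 0.146 times the Control level. Fewer cells of a type and less RNA per cell cannot be told apart in such bulk libraries. The difference was -2.67 (limma adjusted p 1.43e-12) with the macrophage marker level as a covariate.

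The difference was present at every time of day. At ZT4 Stard4 measured 522, 332 and 423 RPKTM in the 3 RevDKO libraries and 44.0, 57.8 and 56.0 in RevScapTKO. At ZT10 it measured 349, 443 and 388 in RevDKO and 70.9, 30.3 and 51.8 in RevScapTKO. At ZT16 the RevDKO libraries had 459, 406 and 464 and the RevScapTKO libraries 64.9, 46.3 and 77.3. The mean of each of these genotypes was lowest at ZT22, with libraries at 295, 246 and 265 in RevDKO and 56.5, 35.8 and 44.7 in RevScapTKO. The lowest single RevScapTKO library, 30.3, was at ZT10. Stard4 was the only 1 of the 4 tested members called at any single time between these genotypes. Its log2 difference was -2.978 at ZT4, -2.997 at ZT10, -2.83 at ZT16 and -2.55 at ZT22 (SE 0.26 each, limma adjusted p 1.84e-09, 1.73e-09, 7.53e-09 and 5.22e-08). The share of all genes called was 9.28% at ZT4, 0.908% at ZT10, 1.37% at ZT16 and 2.35% at ZT22. Between RevDKO and Control, Stard4 differed by 0.06 (95% interval -0.21 to 0.33, limma adjusted p 0.88).

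**Figure D1:**
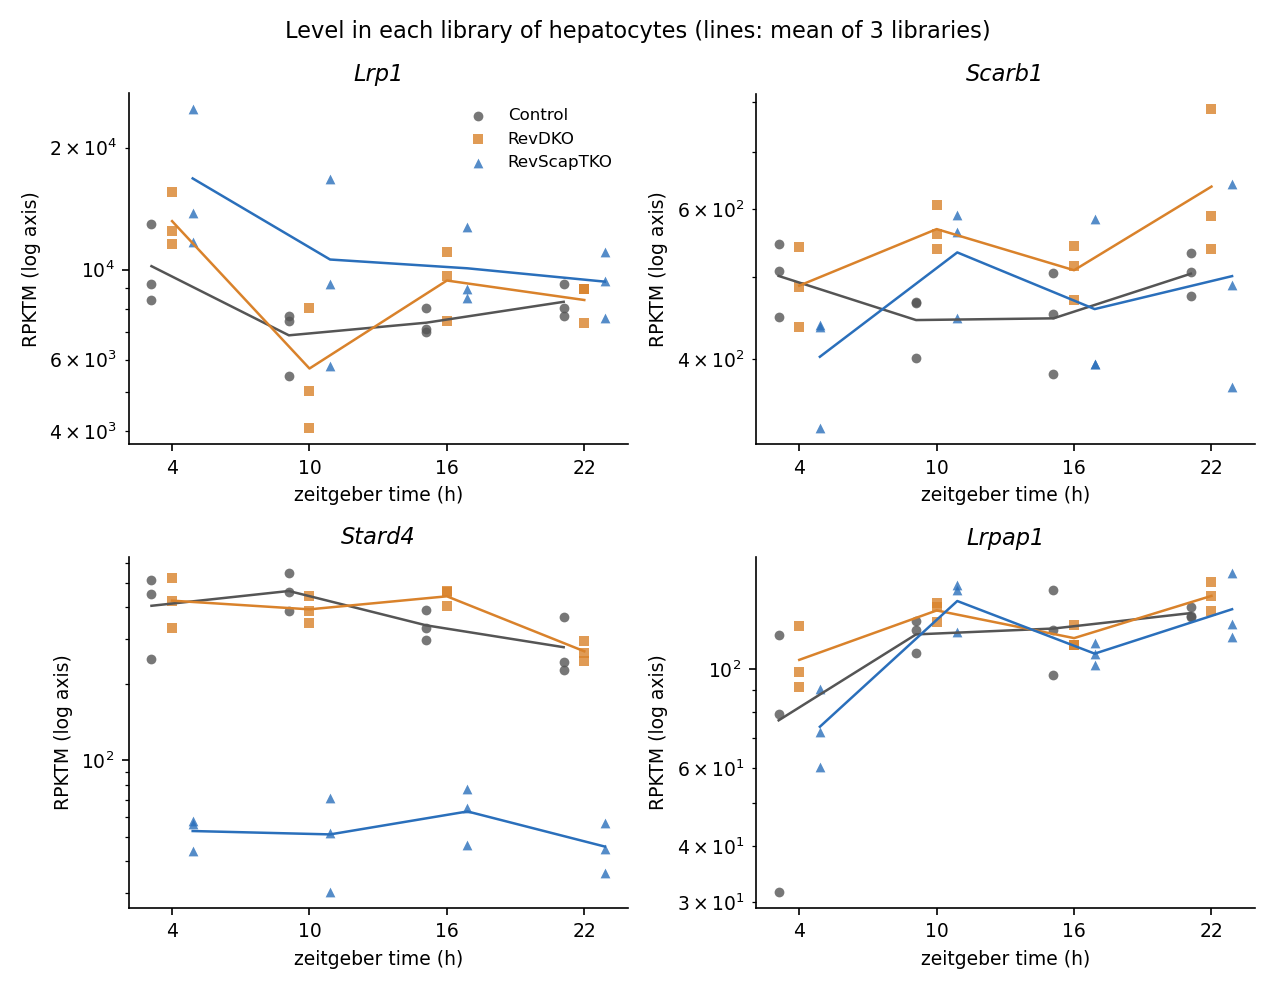
Level of the 4 tested genes in each hepatocyte library (RPKTM, log axis) against zeitgeber time, with genotypes shifted sideways for legibility and lines through the means of 3 libraries. RevScapTKO libraries of Stard4 lie between 30.3 and 77.3 RPKTM, below all libraries of Control and RevDKO, while the genotypes of the other genes overlap.

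Stard4 moved with the genes of cholesterol synthesis. A list of 14 sterol-regulated genes, listed as SREBP-2 targets, was set beside it. The list was chosen with earlier results of these data known. All 14 fell between RevScapTKO and RevDKO hepatocytes, with a median difference of -4.01 against -0.03 over all genes. In this comparison 26.2% of all genes were called. Sqle, the squalene epoxidase, fell from 421 to 9.75 RPKTM (-5.46, SE 0.24, limma adjusted p 6.32e-18), Fdps, which makes farnesyl diphosphate, from 253 to 8.98 (-4.62, SE 0.17, limma adjusted p 5.43e-20) and Idi1 from 31.2 to 0.576 (-4.31, SE 0.24, limma adjusted p 5.16e-15). The difference of Stard4 was smaller than that of 8 of the 14 genes and larger than that of Mvk, Dhcr7, Lss, Fdft1, Hmgcs1 and Srebf2. Against Control all 14 also fell (median -4.02), and none was called by limma between RevDKO and Control, where 0 had an unadjusted p under 0.05. Over the 12 means of genotype and time, genes with a pattern most like Stard4 included Fdps (Pearson r 0.987) and Sqle (0.984). These correlations are across group means that share the genotype difference.

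**Figure D2:**
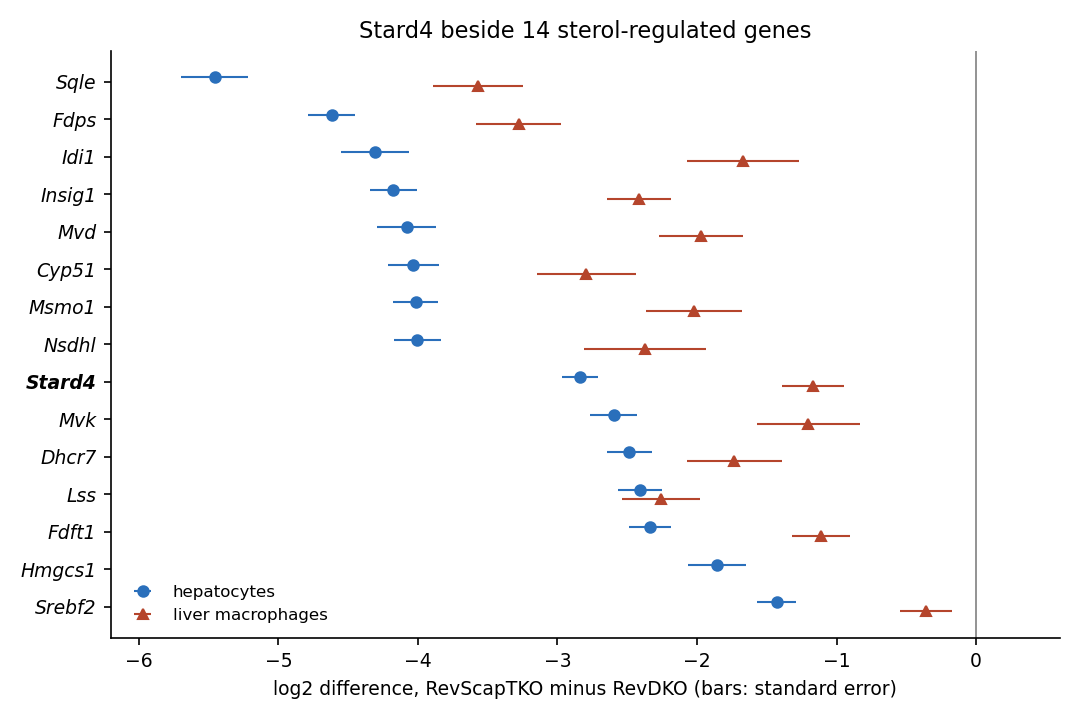
Difference in mean level between RevScapTKO and RevDKO (log2, x axis, bars are standard errors) for Stard4 and 14 sterol-regulated genes in hepatocytes (circles) and liver macrophages (triangles). Stard4 stands at -2.84 in hepatocytes and -1.17 in macrophages, and Hmgcs1 has no macrophage value since it did not pass the filter there.

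In liver macrophages Stard4 was also lower in RevScapTKO, by a smaller amount and with overlap. It measured 51.8 ± 20.8 RPKTM in Control (17.3 to 88.8, median 52.6), 62.4 ± 19.8 in RevDKO (33.1 to 99.1, median 61.7) and 28.2 ± 11.2 in RevScapTKO (9.83 to 47.2, median 27.5; SD, n = 12 each). It fell by 1.17 on the log2 scale between RevScapTKO and RevDKO (SE 0.22, limma adjusted p 0.00101) and fell by 0.86 between RevScapTKO and Control (SE 0.22, limma adjusted p 0.02). In these comparisons 3% and 3.76% of genes were called, and Stard4 was the 1 called of the 4 tested members in both. The call against Control was lost without the RevScapTKO library at ZT16 replicate 2, which had the lowest value (-0.75, limma adjusted p 0.0533). Hepatocyte markers were high in the macrophage libraries, where the summed level of 10 of them had a median of 85760 RPKTM for Control, 69270 for RevDKO and 83500 for RevScapTKO. The summed level of 10 macrophage markers in the same libraries had a median of 18060 RPKTM for Control, 9219 for RevDKO and 9944 for RevScapTKO. Its part in the macrophage differences from Control was not tested. The hepatocyte marker F2, which encodes prothrombin, had a median of 2145 RPKTM in RevDKO macrophage libraries and 8405 in RevDKO hepatocyte libraries, on separate scalings. Stard4 RNA of hepatocytes in these libraries and that of the macrophages themselves cannot be told apart here. Of the sterol-regulated genes tested in macrophages, 11 of 13 were called lower in RevScapTKO than in RevDKO (median -2.02 against 0.04 over all genes). Among them were Sqle (-3.57, SE 0.32, limma adjusted p 1.98e-09) and Cyp51, the lanosterol demethylase (-2.79, SE 0.36, limma adjusted p 2.51e-06). Of the 13, 10 were called lower against Control (median -1.93). An unadjusted limma p under 0.05 was seen for 12 against RevDKO and for 13 against Control. Cyp51 (r 0.915), the neurotrophin gene Ntf3 (0.914) and Sqle (0.912) were closest to Stard4 in pattern over 12 means.

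**Figure D3:**
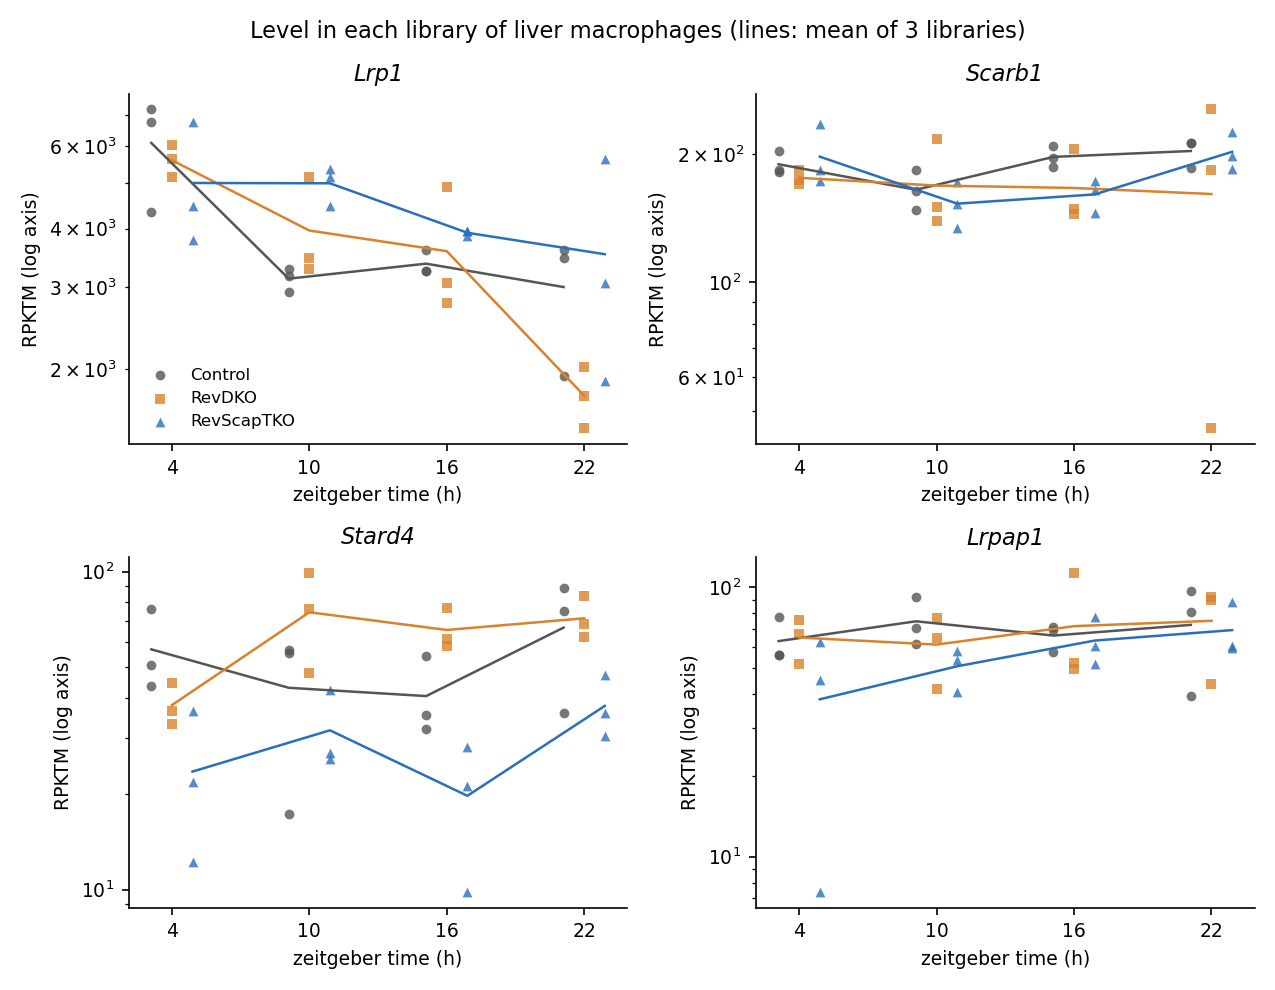
Level of the 4 tested genes in each liver macrophage library (RPKTM, log axis) against zeitgeber time, drawn as for hepatocytes. RevScapTKO libraries of Stard4 lie between 9.83 and 47.2 RPKTM and overlap those of Control and RevDKO.

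The ScapKO libraries had their own scaling, so ranks within a library are given as a description of each table. Among the 13326 genes kept, Stard4 stood at a median percentile of 91.3 in Control hepatocytes, 91.8 in RevDKO and 55.5 in RevScapTKO. In the separate ScapKO hepatocyte table it stood at 69.7 among 12724 genes kept. A difference of ScapKO from the other genotypes was not tested. In macrophages the medians were 74.9 in Control, 78.0 in RevDKO and 58.9 in RevScapTKO, and 67.1 in the separate ScapKO table. One ScapKO hepatocyte library, ZT22 replicate 2, stood apart from the other 11. It had 712 RPKTM of Stard4, where the others ranged from 66.7 to 297, and 1006 of Scap, where the others ranged from 205 to 380. It was also the highest of the 12 for 13 of the 14 sterol-regulated genes, with a median of 6.17 times the middle of the other libraries. With this library the ScapKO hepatocyte mean of Stard4 was 240 ± 161 RPKTM (SD, n = 12), and without it 197 ± 65.3 (SD, n = 11). The ScapKO macrophage library at ZT22 replicate 2 was the highest of its table for Stard4 (398 RPKTM, others 110 to 210), for Scap (1018, others 523 to 757) and for 7 of the 14 sterol-regulated genes, with a median of 2.72 times the middle of the other libraries, and the mean of Stard4 was 188 ± 73.2 with it and 169 ± 33.1 without it. The sources do not say whether both libraries came from the same mouse.

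**Figure D4:**
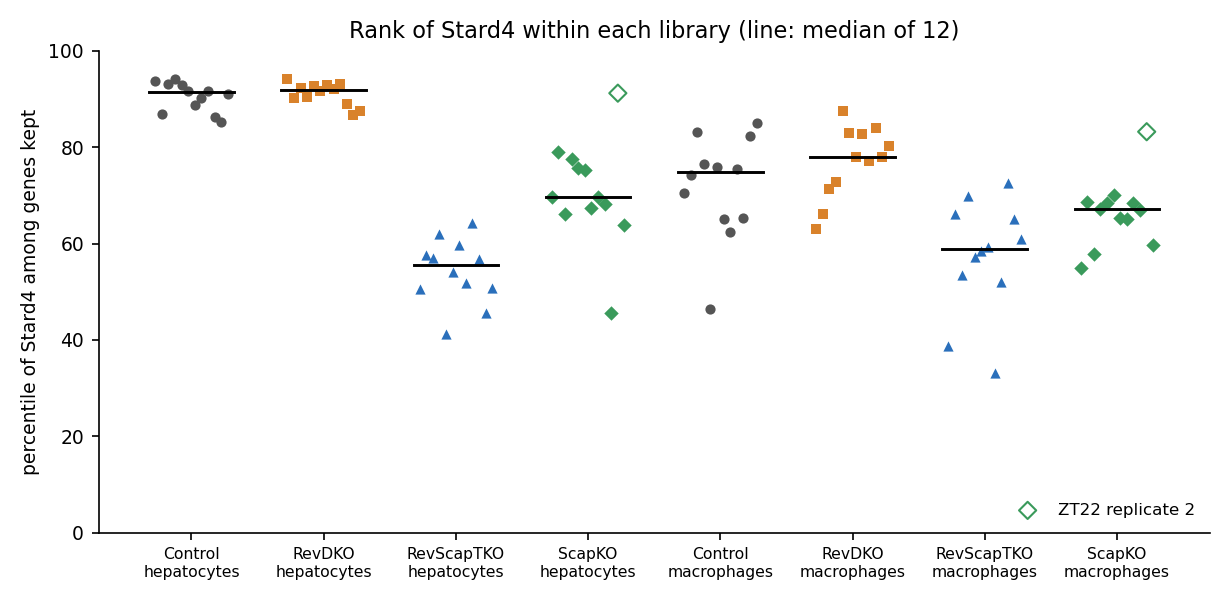
Percentile of Stard4 among the genes kept in its table (y axis), 1 point per library, for each genotype and cell type, with the median as a line. The open symbols are the ScapKO libraries at ZT22 replicate 2, and the RevScapTKO hepatocyte libraries have a median percentile of 55.5 against 91.8 in RevDKO. ScapKO libraries are from separately scaled tables, and their difference from the other genotypes was not tested.

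Lrp1 (NM_008512, mm9, chromosome 10, 126975214 to 127058204, minus strand) was among the most abundant transcripts of both cell types, at a median percentile of 99.7 in hepatocytes of Control, RevDKO and RevScapTKO alike. It measured 8206 ± 1807 RPKTM in Control hepatocytes (5471 to 12963, median 7877), 9176 ± 3186 in RevDKO (4059 to 15528, median 8942) and 11704 ± 5099 in RevScapTKO (5780 to 24858, median 10219.7; SD, n = 12 each). All 3 groups overlapped, and the highest library was RevScapTKO at ZT4 replicate 2. Lrp1 rose by 0.44 on the log2 scale between RevScapTKO and Control (SE 0.15, limma adjusted p 0.0237), in a comparison in which 35.9% of all genes were called and 2 of the 4 tested members, Lrp1 and Stard4. The macrophage marker level rose with it, from a median mean log2 level of 6.05 in Control to 7.67 in RevScapTKO, and with that level as a covariate the difference was 0.04 (limma adjusted p 0.952). The call was also lost without the RevScapTKO library at ZT4 replicate 2 (0.36, limma adjusted p 0.0554) or ZT10 replicate 2 (0.34, limma adjusted p 0.0618) and at the threshold without ZT16 replicate 3 (0.39, limma adjusted p 0.05). Against RevDKO the difference was 0.33 (SE 0.15, limma adjusted p 0.0999), and -0.03 with the covariate.

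In macrophages the mean of Lrp1 was 3899 ± 1545 RPKTM for Control, 3727 ± 1590 for RevDKO and 4366 ± 1272 for RevScapTKO libraries (SD, n = 12 each), and no difference was called (limma adjusted p 0.421 to 0.793). Its mean was highest at ZT4 and lowest at ZT22 in each of these genotypes. The means at these times were 6104 and 3000 RPKTM in Control, 5607 and 1756 in RevDKO and 5011 and 3527 in RevScapTKO. The RevDKO libraries had 5628, 5151 and 6041 at ZT4 and 2023, 1495 and 1750 at ZT22. In the ScapKO tables it measured 18470.3 ± 3694 RPKTM in hepatocytes and 28487 ± 3908 in macrophages. The genes most like Lrp1 over the 12 hepatocyte means were Helz (r 0.957), Slc25a30 (0.947) and Fnbp1l (0.943), and over the macrophage means Zfp740 (0.952), Pcf11 (0.933) and Smcr8 (0.931).

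Scarb1 (NM_016741, mm9, chromosome 5, 125757457 to 125821464, minus strand) varied within a genotype by a coefficient of variation of 10.3% in Control, 15.97% in RevDKO and 21.0% in RevScapTKO hepatocytes. In these cells it measured 474 ± 49.0 RPKTM in Control (384 to 546, median 471), 551 ± 87.9 in RevDKO (436 to 785, median 540) and 474 ± 99.3 in RevScapTKO (332 to 641, median 443; SD, n = 12 each). The groups overlapped, and the highest value was that of RevDKO at ZT22 replicate 2. Scarb1 differed by 0.21 on the log2 scale between RevDKO and Control (95% interval 0.02 to 0.40, limma adjusted p 0.243) and by -0.23 between RevScapTKO and RevDKO (95% interval -0.42 to -0.04, limma adjusted p 0.0656). Neither passed the threshold. The second fell below it without any 1 of 4 libraries, namely RevDKO at ZT22 replicate 3 (adjusted p 0.0464) and RevScapTKO at ZT4 replicate 1 (0.0485), ZT16 replicate 1 (0.0215) and ZT22 replicate 3 (0.0222). With the macrophage marker level as a covariate this second difference was -0.16 (limma adjusted p 0.723). Without the 5 hepatocyte libraries in which Alb took over 10% of the column sum it was -0.22 (limma adjusted p 0.105). In macrophages the values were 188 ± 19.5, 168 ± 51.1 and 178 ± 30.0 RPKTM, and 1 RevDKO library, ZT22 replicate 2, stood at 45.5 where the other 35 ranged upward from 134. No macrophage difference was called (limma adjusted p 0.487 to 0.819). In ScapKO it measured 1192 ± 276 RPKTM in hepatocytes and 985 ± 185 in macrophages. Slc22a15 (r 0.891), Atp6v1g2 (0.873) and Apcs (0.870) were closest in pattern in hepatocytes, and Ptcd1 (0.866) and Nrf1 (0.814) were among the closest in macrophages.

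Lrpap1 (NM_013587, mm9, chromosome 5, 35434141 to 35448348, minus strand) had a mean of 113 ± 31.9 RPKTM among Control hepatocytes (31.6 to 150, median 123), 126 ± 19.3 in RevDKO (91.1 to 157, median 127) and 115 ± 31.9 in RevScapTKO (60.5 to 165, median 117; SD, n = 12 each). Its mean was lowest at ZT4 in all 3 genotypes, with libraries at 119, 31.6 and 79.4 in Control, 91.1, 125 and 98.7 in RevDKO and 90.3, 72.2 and 60.5 in RevScapTKO, and single libraries overlapped those of other times in Control and RevDKO. Its differences were 0.22 between RevDKO and Control (95% interval -0.05 to 0.49, limma adjusted p 0.418; 0.09 without the Control library at ZT4 replicate 2) and -0.17 between RevScapTKO and RevDKO (95% interval -0.43 to 0.10, limma adjusted p 0.367). In macrophages it measured 69.1 ± 16.3, 68.2 ± 22.01 and 55.5 ± 19.8 RPKTM in Control, RevDKO and RevScapTKO, where RevScapTKO at ZT4 replicate 2 had 7.40 and the other 35 libraries 39.6 or more. The difference between RevScapTKO and RevDKO was -0.39 (95% interval -0.87 to 0.10, limma adjusted p 0.411), and -0.16 without that RevScapTKO library. ScapKO libraries measured 209 ± 34.1 RPKTM in hepatocytes and 227 ± 40.3 in macrophages. Most like it in pattern were Cldn12 (r 0.965), Gpihbp1 (0.949) and Ostf1 (0.915) in hepatocytes and Thap12 (0.893), Sdf4 (0.873) and Arl15 (0.862) in macrophages. Gpihbp1 carries lipoprotein lipase across capillary endothelium.

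Npc1l1 (NM_207242, mm9, chromosome 11, 6111014 to 6130248, minus strand) was listed at 0 in 27 of 36 hepatocyte libraries and 30 of 36 macrophage libraries, in 12 of 12 ScapKO hepatocyte libraries and in 8 of 12 ScapKO macrophage libraries. In hepatocytes the values above 0 were 1.08 and 1.26 RPKTM in Control, 1.06, 1.27, 1.06, 0.482, 0.671 and 0.349 in RevDKO and 0.327 in RevScapTKO. All 3 RevDKO libraries at ZT10 were above 0. The only value above 5 RPKTM in the 96 libraries was 7.25, in the ScapKO macrophage library at ZT10 replicate 2. No fold change is given at these levels, and the depth of the libraries is unknown.

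Promoter sequences were read for the members that the RefSeq table of promoters held (GRCm38.p6, 250 bases before to 50 after the start), namely Lrp1, Lrpap1 and Npc1l1. Each was searched on both strands for the sterol element core TCACNCCAC, the E-box CACGTG, the REV-ERB element (an A/T-rich stretch before AGGTCA) and its core AGGTCA alone. Of 32851 promoters of this length, 1.24%, 7.15%, 0.219% and 16.3% held these motifs. The core AGGTCA in Npc1l1 was the single match, on the strand opposite to the gene, so that it reads TGACCT in the sequence shown, and beginning 100 bases before the start. Lrp1 is shown since it was called in hepatocytes between RevScapTKO and Control, a call that was lost with the macrophage marker covariate. The 250 bases before the start are given for Lrp1, at chr10:127621149-127621398, and for Npc1l1, with its match in capitals, at chr11:6230246-6230495, both read 5′ to 3′ on the minus strand.
Lrp1: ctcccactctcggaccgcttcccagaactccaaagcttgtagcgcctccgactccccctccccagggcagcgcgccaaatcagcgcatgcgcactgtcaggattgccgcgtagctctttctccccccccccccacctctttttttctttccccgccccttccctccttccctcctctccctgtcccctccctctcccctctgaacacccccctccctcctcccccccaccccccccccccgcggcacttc
Npc1l1: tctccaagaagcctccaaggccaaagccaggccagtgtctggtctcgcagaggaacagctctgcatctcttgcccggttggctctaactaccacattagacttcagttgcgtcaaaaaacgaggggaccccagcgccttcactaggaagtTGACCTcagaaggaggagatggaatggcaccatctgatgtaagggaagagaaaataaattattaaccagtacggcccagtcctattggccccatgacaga

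**Figure D5:**
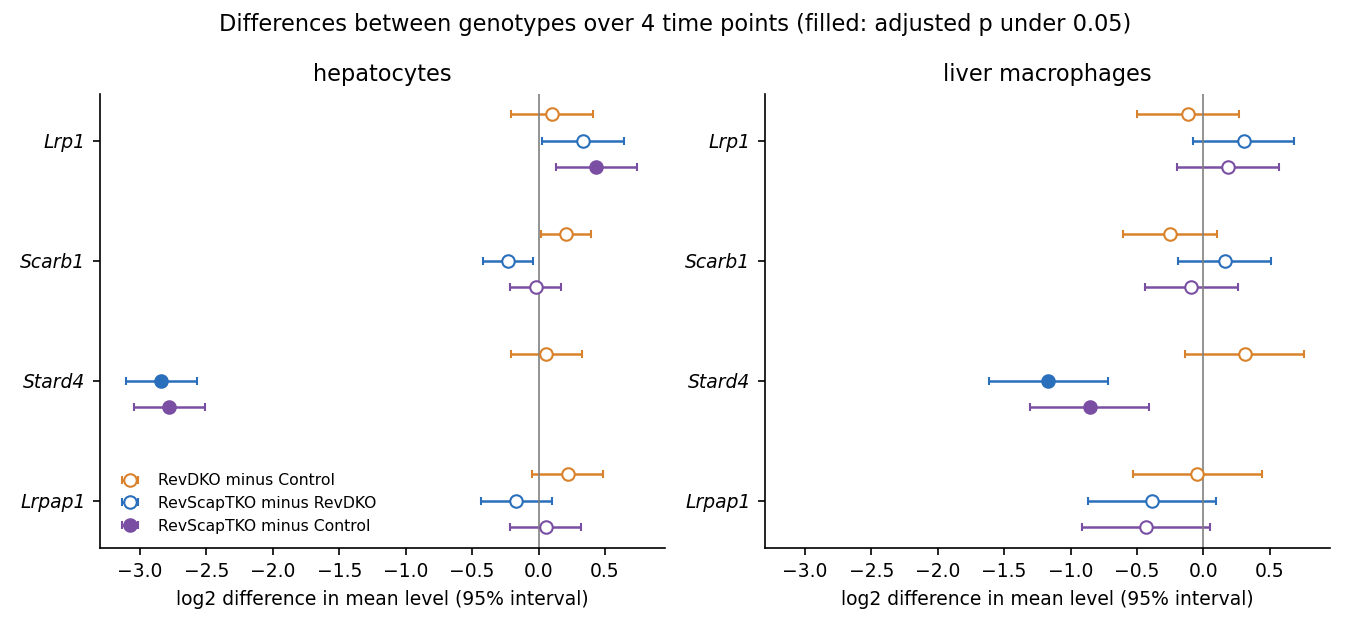
Difference in mean level (log2, x axis) with its 95% interval for the 4 tested genes in hepatocytes (left) and liver macrophages (right), for 3 pairs of genotypes. Filled points passed an adjusted p of 0.05, namely Stard4 in both cell types for both pairs with RevScapTKO, and Lrp1 in hepatocytes for RevScapTKO minus Control (0.44).

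None of the 4 tested members was called by limma between RevDKO and Control in the mean over the day, where 4.43% of all genes were called in hepatocytes and 0.574% in macrophages. At an unadjusted p under 0.05 there was 1 member in hepatocytes, Scarb1, and 0 in macrophages. At single times none of the 4 was called between these genotypes in hepatocytes, against 1.77% of genes called at 1 or more of these times. Lrpap1 had an unadjusted p of 0.0232 at ZT4 (0.63, adjusted p 0.423), a difference that was 0.09 without the Control library at ZT4 replicate 2, and at the other 3 times 0 members were under 0.05.

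No difference in 24 h rhythm was called for a member. A limma test of the cosine and sine terms called 0 of the 4 members between RevDKO and Control or between RevScapTKO and RevDKO in either cell type, and 0 had an unadjusted p under 0.05. Of all genes, 0.203% were called between RevDKO and Control hepatocytes and 0% in the other 3 tests, in which 674, 767 and 498 genes had an unadjusted p under 0.05. The peak-to-trough difference of Stard4 in hepatocytes was 0.78 in Control, 0.55 in RevDKO and 0.25 in RevScapTKO on the log2 scale, and that of Lrp1 was 0.53, 0.79 and 0.69. Adjusted p-values of the members' rhythm differences were 0.891 or more in these comparisons and 0.783 or more between RevScapTKO and Control.

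Rhythm within each genotype was called with JTK_CYCLE, a rank test of cosine patterns, on the 12 libraries entered 2 times in a row. In Control hepatocytes Stard4 was the 1 rhythmic member, with a peak at ZT10 (JTK_CYCLE exact p 0.003, adjusted for 7 patterns), where 24.8% of genes were rhythmic. At ZT10 it measured 547, 460 and 386 RPKTM and at ZT22 243, 227 and 366. No member was rhythmic in RevDKO or RevScapTKO hepatocytes, where 24.9% and 16% of genes were. Lrp1 was the 1 rhythmic member in ScapKO hepatocytes (peak ZT4, ratio 1.51, exact p 0.000572), where 15.6% of genes were rhythmic, with 24841, 21713 and 21065 RPKTM at ZT4 and 10927, 18879 and 15044 at ZT22. In Control hepatocytes Lrp1 also had its peak at ZT4 (JTK_CYCLE exact p 0.00784). It was not called there because its ratio, 1.48, was under the minimum of 1.5. In macrophages no member was rhythmic in Control, RevDKO, RevScapTKO or ScapKO, against 15.2%, 21.8%, 11.7% and 17.2% of genes. With the libraries entered once, 0 members were rhythmic in any of the 8 sets, and the exact p was 0.142 for Stard4 in Control and 0.05 for Lrp1 in ScapKO hepatocytes. A limma test of a 24 h cosine called 0 members in the 8 sets.

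Other uptake genes were read from 4 further lists. In the counts for these lists, rose and fell mean called higher and called lower. Of 9 tested genes of the LDL receptor family in hepatocytes, 2 rose and 1 fell between RevScapTKO and RevDKO (median 0.13, all genes -0.03), where 26.2% of all genes were called. Lrp2, which encodes the endocytic receptor megalin, rose to 37.0 RPKTM in RevScapTKO (1.58, SE 0.27, limma adjusted p 7.43e-05). Sorl1, a sorting receptor, rose from 8.06 to 15.8 (0.92, SE 0.21, limma adjusted p 0.00199), and Vldlr, the very low density lipoprotein receptor, fell from 23.5 to 9.73 (-1.22, SE 0.25, limma adjusted p 0.000521). Against Control, where 35.9% of all genes were called, 3 rose and 1 fell, with Lrp5 at 0.32 (limma adjusted p 0.0318) in addition, and none of the 9 was called by limma between RevDKO and Control, where 2 had an unadjusted p under 0.05. In macrophages 1 of 10 was called, Sorl1, which rose between RevScapTKO and RevDKO (1.16, SE 0.32, limma adjusted p 0.0369). There 3% of all genes were called. The macrophage marker sum of the hepatocyte libraries had a median of 2886 RPKTM in RevScapTKO and 1102 in RevDKO. Its part in the hepatocyte rises of Lrp2 and Sorl1 was not tested.

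Of 10 tested scavenger receptors in hepatocytes, 7 rose and none fell between RevScapTKO and RevDKO (median 0.66, 26.2% of all genes called), and 6 rose against Control (median 0.74, 35.9% of all genes called). The largest rises against RevDKO were those of Marco (1.93, SE 0.48, limma adjusted p 0.00372), Cd68 (1.01, SE 0.21, limma adjusted p 0.000771) and Msr1 (0.82, SE 0.22, limma adjusted p 0.0063), which are known as genes of macrophages. The macrophage marker sum in the same libraries had a median of 2886 RPKTM in RevScapTKO and 1102 in RevDKO, and its part in these rises was not tested. In macrophages 0 of 10 scavenger receptors were called by limma in any comparison, and 1 or 2 per comparison had an unadjusted p under 0.05. Cd36, a fatty acid and lipoprotein receptor, was the 1 gene of the 4 lists called between RevDKO and Control, falling from 249 to 115 RPKTM in hepatocytes (-1.05, SE 0.25, limma adjusted p 0.00995). The share of all genes called between these genotypes was 4.43% in hepatocytes and 0.574% in macrophages.

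Among 12 adaptors, chaperones and partners, 2 rose between RevScapTKO and RevDKO hepatocytes, a smaller share than the 26.2% of all genes called. These were Sort1, a sorting receptor (0.63, SE 0.17, limma adjusted p 0.00591), and Dab2, a clathrin adaptor (0.62, SE 0.21, limma adjusted p 0.0288). The macrophage marker sum was also higher in RevScapTKO than in RevDKO hepatocyte libraries (medians 2886 and 1102 RPKTM). Its part in these rises was not tested. Against Control, where 35.9% of all genes were called, 4 of the 12 were called. Dab2 rose (0.72, limma adjusted p 0.00846), and Pdzk1, the adaptor of SR-BI (-0.38, limma adjusted p 0.0187), and Sdc1 (-0.29, limma adjusted p 0.0229) were among those that fell. In macrophages Mylip, a ubiquitin ligase that degrades lipoprotein receptors, fell between RevScapTKO and RevDKO (-0.66, limma adjusted p 0.0415) and Control (-0.70, limma adjusted p 0.0244), and Gpihbp1 fell against RevDKO (-0.80, limma adjusted p 0.0434). The summed level of 7 endothelial markers in macrophage libraries had a median of 1506 RPKTM in RevDKO and 1292 in RevScapTKO. Macrophage marker sums had medians of 18060 in Control, 9219 in RevDKO and 9944 in RevScapTKO. The part of these marker levels in the falls of Gpihbp1 and Mylip was not tested. The shares of all genes called in macrophages were 3% against RevDKO and 3.76% against Control. Of 13 other genes of intracellular sterol transport in hepatocytes, Gramd1c rose (0.40, limma adjusted p 0.0165) and Stard5 fell (-0.27, limma adjusted p 0.0215) between RevScapTKO and RevDKO. The same pair was called against Control, with Stard3 in addition (-0.32, limma adjusted p 0.0315). The 2 and 3 calls of 13 are smaller shares than the 26.2% and 35.9% of all genes called in these comparisons. None of the 14 tested in macrophages was called by limma, and 1 or 2 per comparison had an unadjusted p under 0.05. Stard3 and Stard5 belong with Stard4 to the START domain family of lipid carriers.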

How the data were processed

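RNA was sequenced from hepatocytes and liver macrophages in 96 libraries. The labels of the ScapKO hepatocyte libraries disagree, since the titles say hepatocyte and the cell type field says macrophage. The titles were followed, and Alb and other hepatocyte markers were high in these libraries. Per the labels and the study's methods, the authors aligned reads with STAR to mm9 and counted RefSeq transcripts with HOMER (versions and strand setting not given in the sources used here). The deposited values are RPKM-like RPKTM (reads per kilobase at a fixed library total), quantile normalized within each of 4 tables, so that sorted columns were identical. Sequencing depth is unknown, and precision rests on the number of libraries. No library pair was identical. The study's methods call the replicates biological, and p-values measure the spread between these libraries. Rows were grouped by symbol, keeping the transcript with the highest mean. Coordinates are those of mm9, and exon overlap was checked with the gene annotation of the same build.

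Genes above 5 RPKTM in at least 3 libraries (13326 in hepatocytes, 13947 in macrophages) were tested as log2(RPKTM + 1) with limma 3.58.1 (trend) in R 4.3.3, with 12 group means. The p-values were adjusted by the Benjamini-Hochberg method across all tested genes, with a threshold of 0.05. A fold on this scale understates the change of low genes. Rhythm differences were F tests of 24 h cosine and sine terms. JTK_CYCLE was written in Python 3.11.15 with periods of 18 h and 24 h, and a rhythmic gene had 24 h as its best period, p times 7 patterns under 0.05, a highest time mean over 1.5 times the lowest, and 2 libraries above 5 RPKTM. Entering the libraries 2 times, as the study's methods do, counts each library more than once and makes the p too small. Scripts were tested on simulated data. Named genes were the members, the 3 genes most like each in Pearson r over 12 group means, and up to 3 called genes per list, contrast and direction, of which a few are not reported here. The members and lists were chosen with earlier results of these data known. Promoters were from RefSeq (GRCm38.p6), where 3 of 5 members matched. The alternatives changed the pseudocount (0.1, 10), the filter, the transcript, the samples, the replicate block, array weights and a marker covariate.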

Additional observations from a re-analysis of the deposited data

How the results depend on the processing

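The fall of Stard4 in RevScapTKO hepatocytes kept its direction and its call under every alternative run, from -2.91 to -2.76 against RevDKO and from -2.86 to -2.70 against Control when each library was left out. In macrophages it ranged from -1.26 to -1.06 against RevDKO and from -0.99 to -0.75 against Control, where the number of members called was 0 to 1. Between RevDKO and Control hepatocytes Stard4 ranged from -0.02 to 0.11. For Lrp1 the hepatocyte difference from Control ranged from 0.34 to 0.53 when a library was left out and was 0.44 (adjusted p 0.0561) when low genes were kept and 0.04 (adjusted p 0.952) after the marker level entered as a covariate, so that 1 member was called in place of 2. Its difference from RevDKO ranged from 0.23 to 0.43, was -0.03 with the covariate, and was 0.45 (adjusted p 0.0402) without the 5 hepatocyte libraries in which Alb took over 10% of the column sum, an alternative chosen after the data were seen, where 2 members were called in place of 1. Leaving out 1 library gave 1 to 3 members called in this comparison, 1 to 2 against Control, and 0 to 1 at ZT4 between RevDKO and Control. The reversals were of differences that were not called. Lrpap1 turned to 0.06 for RevScapTKO minus RevDKO hepatocytes with the covariate, Scarb1 to 0.06 for RevScapTKO minus Control with the covariate and 0.06 with array weights, and Scarb1 in macrophages to -0.05 with array weights for RevScapTKO minus RevDKO. With 1 library left out, Lrpap1 ranged from -0.08 to 0.16 for RevScapTKO minus Control hepatocytes and from -0.14 to 0.04 for RevDKO minus Control macrophages, and Scarb1 from -0.07 to 0.03 for RevScapTKO minus Control hepatocytes, from -0.28 to -0.18 for RevScapTKO minus RevDKO hepatocytes and from -0.03 to 0.28 for RevScapTKO minus RevDKO macrophages. The causes were not tested.

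With no filter, Npc1l1 entered the tests and was called in hepatocytes, in the mean between RevScapTKO and RevDKO, at ZT10 in the same comparison (2 members called each) and at ZT10 between RevDKO and Control (1 member called), from values of 1.27 RPKTM or less. In the JTK_CYCLE calls, entering the libraries once or testing a 24 h cosine with limma left 0 rhythmic members in Control and in ScapKO hepatocytes in place of 1. With no minimum ratio there were 2 in Control hepatocytes, and 1 (Scarb1) in Control and in RevScapTKO macrophages, and with the second transcript 1 (Stard4) in RevDKO macrophages. With 1 library left out, the number of rhythmic members was 1 to 2 in Control, 0 to 1 in RevScapTKO and 0 to 2 in ScapKO hepatocytes, and 0 to 1 in each of Control, RevDKO and RevScapTKO macrophages. Correlations of deviations between same-numbered libraries ran from -0.199 to 0.372. Their medians (0.023 to 0.141) were above those of other pairs (-0.07 to -0.026) in all 6 comparisons, but 3 to 8 of 12 pairs were over 0.1, not every pair, so the numbers were not taken as pairing. With the replicate block Stard4 fell by 2.84 (adjusted p 1.19e-14) and no call changed for a mean level. One listed alternative, leaving out 3 hepatocyte libraries with high Alb, was not run as worded, since those 3 libraries are in the macrophage table. Leaving out those 3 from the macrophage table gave -1.13 for Stard4 between RevScapTKO and RevDKO.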
